A study of Mus musculus with 10 samples.

Results

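The genes described here are the 4 Notch receptors Notch1, Notch2, Notch3 and Notch4, the ligands Dll1, Dll3, Jag1 and Jag2, and the target genes Hes1 and Hes5. They were taken by gene symbol from a matrix of 23230 features, where each of the 10 symbols matched 1 feature, and no expression value was used to choose them. The matrix covers 10 RNAseq libraries of a mouse model of glioma. All 10 libraries came from C57BL/6 cortical astrocytes taken at P5, in which p16/p19 (the Ink4a/Arf locus) were knocked out and into which human EGFRvIII, a constitutively active receptor abbreviated EGFR*, was brought by a retroviral vector. The 3 AstroEGFR* libraries are these astrocytes in culture, 1 from each of the astrocyte batches 1 to 3. The 4 PT libraries are glioma propagating cells, that is, cells cultured from the tumours that such astrocytes formed after transplantation into CD1 Nude mice; batch 1 gave PT1 and PT4, batch 2 gave PT2 and batch 3 gave PT3. The 3 AstroEGFR* Zfp423 libraries are AstroEGFR* of the same batches infected in addition with a vector that overexpressed Zfp423, a zinc finger transcription factor. All cultures were below passage 10, and AstroEGFR* were kept with serum and PT without it, so that the medium and the passage through a tumour cannot be told apart. No library with an empty vector was used here, so the infection itself and Zfp423 cannot be told apart either.

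Notch receptors are transmembrane proteins that are activated by ligands of the Delta-like and Jagged families on neighbouring cells. Ligand binding leads to cleavage of the receptor by an ADAM protease and then by gamma-secretase, and the freed intracellular domain binds the DNA-binding protein RBPJ and switches on target genes, among which the Hes and Hey repressors are the best known. In the developing cortex this pathway keeps progenitors undifferentiated and favours glial over neuronal fates, and ZFP423 is known to act together with Notch and BMP signalling at the Hes5 gene.

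That known link is why the Hes5 promoter is shown. RBPJ binds sites with the core TGGGAA, and this core was searched on both strands of the 250 bases before each RefSeq gene start of assembly GRCm38.p6, where its reverse complement is TTCCCA. Hes5 held it at 2 places, and 2.77% of 32851 mouse promoters held at least 2. The first stretch below lies on chr4:154960685-154960714 and its core ends 220 bases before the gene start, and the second lies on chr4:154960829-154960858 and its core ends 76 bases before it. Both are written 5′ to 3′ on the plus strand, which is the strand of Hes5, with the core in capitals.
Hes5, far core: agggcgagcgcgTTCCCAcagcccggacat
Hes5, near core: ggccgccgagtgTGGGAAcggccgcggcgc
None of the other 8 members with an entry held the core in this window, while 21.6% of all promoters did, and Hes1 had no entry. These matches are descriptions of the letters and no binding was measured.

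The values are FPKM, fragments scaled to the length of the transcript and the size of the library, so that levels are set side by side between genes as listed. A listed value need not be a true level: Hmgcs1, a gene of cholesterol synthesis that cells generally use, is listed at 0 in all 10 libraries, and Gapdh, a gene of glycolysis, at 0.0106 to 50.1 FPKM. The depth was uneven. From the steps in which low values are spaced, AstroEGFR*3 had 0.0720 and PT3 0.0944 of the depth of PT1, against 0.509 to 1 in the other 8 libraries. A member listed at 0 is given here as listed and not as absent, and in AstroEGFR*3 and PT3 the smallest value that could be listed was coarse, since 1 fragment of Hes5 was worth about 0.131 FPKM in AstroEGFR*3 and 0.00955 FPKM in PT4. Zfp423 itself was listed at 4.30, 3.25 and 3.48 FPKM in AstroEGFR*1 to AstroEGFR*3 and at 15.7, 9.73 and 105 FPKM in the infected libraries of the same batches, so each infected library exceeded its parent culture. The 7 astrocyte markers summed to between 356 and 963 FPKM in AstroEGFR*, between 151 and 684 FPKM in PT, and to 133, 7.22 and 813 FPKM in the infected libraries of batches 1 to 3. The infected library of batch 2 thus carried little of the astrocyte programme that its label names: its Gfap stood at 1.11 FPKM and its Aqp4 at 0.0266 FPKM, and it and the infected library of batch 1 carried 602 and 1116 FPKM of 6 microglia markers against 0.0741 FPKM in that of batch 3. The 5 markers of fibroblasts or meninges summed to between 270 and 5072 FPKM in AstroEGFR*, to between 0.901 and 367 FPKM in PT, and to 4449, 6183 and 222 FPKM in the infected libraries of batches 1 to 3. In bulk RNA, fewer cells of a type and less RNA per cell cannot be told apart.

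By their median listed value over the 10 libraries the members ran from Hes1 at 68.2 FPKM through Notch1 at 40.6, Notch2 at 29.6, Jag1 at 17.5 and Notch3 at 4.47 FPKM to Dll1 at 0.435, Notch4 at 0.339, Jag2 at 0.133, Hes5 at 0.0982 and Dll3 at 0.0711 FPKM. Hes1 lay above 95.4% of all features by this median, Notch1 above 91.3% and Dll3 above 39.4%. Only 2 steps of this order exceeded the spread between libraries. Jag1 was above Notch3 in 10 of 10 libraries, by 2.29 ± 1.26 (SD, n = 10) in log2(FPKM + 1), and Notch3 above Dll1 in 8 of 10, by 1.29 ± 1.06. Hes1 exceeded Notch1 in 8 of 10 libraries by 1.01 ± 1.27, and Notch1 exceeded Notch2 in 7 of 10 by 0.52 ± 1.46, so these neighbours did not differ beyond their spread, and neither did Notch2 and Jag1 or any neighbours from Dll1 downwards. The order pools 3 unlike groups: Dll1 was at 4.64, 2.42 and 4.21 FPKM in PT1, PT2 and PT4, above Notch3 in PT1 and PT2.

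**Figure D1:**
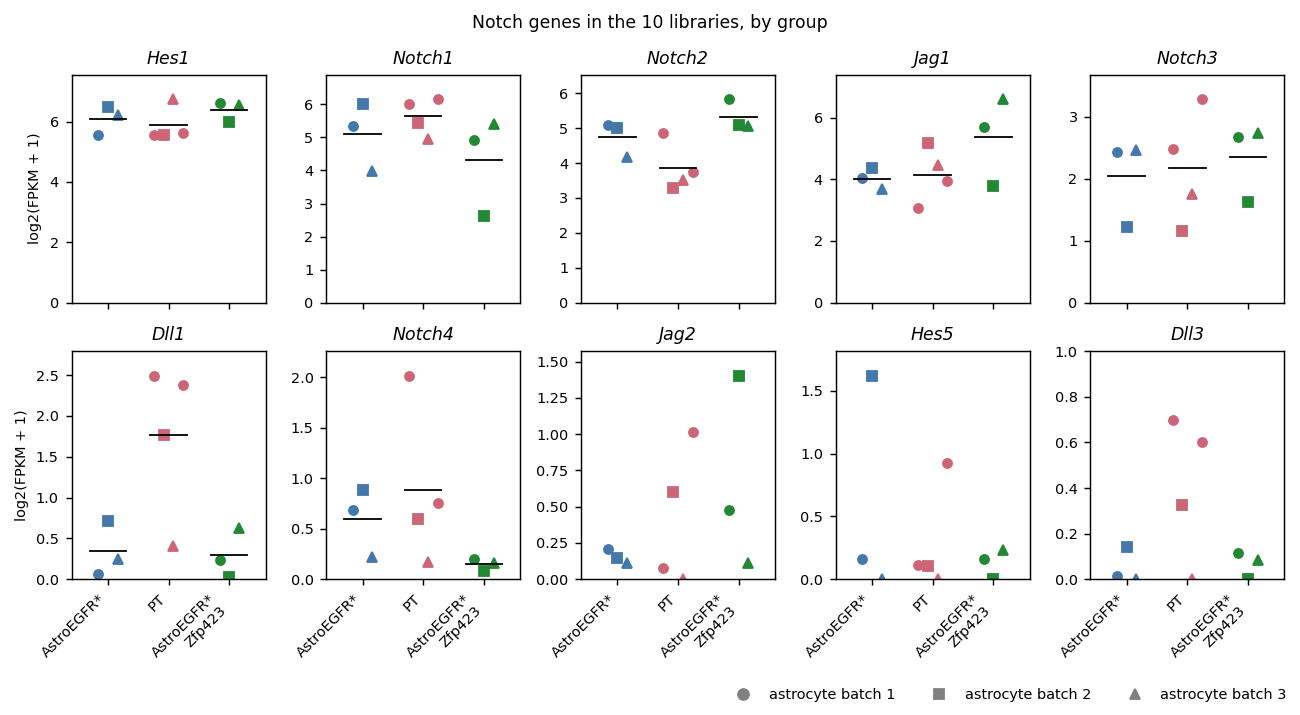
Level of each member in the 10 libraries, in log2(FPKM + 1), by group, with the marker shape giving the astrocyte batch and a black line the group mean where no library is listed at 0; each panel has its own vertical scale from 0. Dll1 is high in PT1, PT2 and PT4 at 4.64, 2.42 and 4.21 FPKM, Notch1 is lowest in the infected library of batch 2 at 5.12 FPKM, and the groups overlap for most genes.

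Among the receptors, Notch1, the main receptor of cortical progenitors, stood at 39.5, 63.9 and 14.8 FPKM in AstroEGFR*1 to AstroEGFR*3. Across PT1 to PT4 it stood at 64.2, 42.2, 30.3 and 70.8 FPKM, and at 29.2, 5.12 and 41.6 FPKM in the infected libraries of batches 1 to 3. The 3 groups overlapped, and the infected library of batch 2 lay below all others. Over the 10 libraries the highest value was 13.8-fold the lowest. Against the AstroEGFR* library of its own batch, Notch1 was 1.62-fold in PT1, 2.04-fold in PT3 and 1.79-fold in PT4, whereas in batch 2 the parent was 1.51-fold PT2. With Zfp423 the batches went in opposite directions: in batch 2 the parent was 12.5-fold the infected culture, in batch 1 it was 1.35-fold, and in batch 3 the infected culture was 2.81-fold its parent. The low value in batch 2 stands on about 2392 fragments, and the same library had the lowest sum of astrocyte markers. Its 7 oligodendrocyte lineage markers summed to 52.6 FPKM against 127 FPKM in its parent. Of the 52.6 FPKM, 49.9 were Cspg4, also a mural cell marker, which was higher than in the parent. Olig1 and Olig2 were listed at 0 in this infected library, against 81.8 and 42.9 FPKM in the parent. The part of the cell makeup in the Notch1 value was not tested.

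Notch2, a receptor that radial glia also carry, lay on the same side of its parent culture in every batch of either comparison. Its levels were 33.2, 31.2 and 16.9 FPKM in AstroEGFR*1 to AstroEGFR*3, 28.0, 8.84, 10.5 and 12.5 FPKM in the 4 PT libraries in order, and 56.1, 33.0 and 32.5 FPKM in the infected libraries. All 4 PT libraries lay below their parent, which was 1.19-fold PT1, 3.53-fold PT2, 1.61-fold PT3 and 2.66-fold PT4. All 3 infected libraries lay above it, at 1.69-fold in batch 1, 1.06-fold in batch 2 and 1.92-fold in batch 3. PT and infected AstroEGFR* did not overlap, the highest PT library standing at 28.0 and the lowest infected library at 32.5 FPKM. The markers of fibroblasts or meninges also lay below the parent in all 4 PT libraries, at 32.8 and 7.43 FPKM in PT1 and PT4 against 270, at 0.901 FPKM in PT2 against 482 and at 367 FPKM in PT3 against 5072; their part in the Notch2 levels was not tested.

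Notch3, which is known from mural cells of blood vessels and from glial progenitors, was the least abundant of the 3 receptors above 1 FPKM. It was listed at 4.42, 1.34 and 4.52 FPKM in AstroEGFR*, at 4.60, 1.22, 2.36 and 8.78 FPKM in PT, and at 5.40, 2.10 and 5.66 FPKM with Zfp423. The libraries of batch 2 were the lowest of their group in each case, and each infected library stood at 1.22-fold to 1.56-fold its parent. The 5 mural cell markers summed to between 30.0 and 77.9 FPKM in AstroEGFR*, between 2.01 and 65.6 FPKM in PT and between 6.20 and 140 FPKM with Zfp423. In PT4, 64.5 of the 65.6 FPKM were Cspg4, which oligodendrocyte precursors share, while Pdgfrb, the defining receptor of mural cells, was at 27.9 to 65.7 FPKM in AstroEGFR*, at 0.182 to 4.94 FPKM in PT and at 72.9, 89.8 and 6.07 FPKM in the infected libraries. Their part in the Notch3 levels was not tested.

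Notch4, the receptor of endothelium, was at 0.610, 0.850 and 0.166 FPKM in AstroEGFR*, 3.04, 0.513, 0.127 and 0.692 FPKM in PT, and 0.152, 0.0610 and 0.118 FPKM with Zfp423. PT1 stood apart from the rest, and every infected library lay below every AstroEGFR* library, although the closest pair, 0.152 and 0.166 FPKM, rests on about 50 and 7 fragments. The 6 endothelial markers summed to at most 2.94 FPKM in any library, and in PT1 to 0.0702 FPKM.

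Of the ligands, Dll1, which is made by cells that leave the progenitor state and activates Notch on their neighbours, had the widest difference of means between PT and AstroEGFR* among the members. It was listed at 0.0470, 0.635 and 0.188 FPKM in AstroEGFR*1 to AstroEGFR*3, at 4.64, 2.42, 0.324 and 4.21 FPKM across PT1, PT2, PT3 and PT4, and at 0.181, 0.0172 and 0.546 FPKM in the infected libraries. Each of the 4 PT libraries lay above its parent culture, by 2.43, 1.06, 0.16 and 2.32 in log2(FPKM + 1) for PT1 to PT4. The smallest step, in batch 3, rests on about 4 fragments in AstroEGFR*3 and 9 in PT3, while PT1, PT2 and PT4 held about 1387, 459 and 1240. PT1 and PT4 also had the highest sums of the 7 oligodendrocyte lineage markers, at 1356 and 1648 FPKM against 130 and 145 FPKM in PT3 and PT2 and 61.1 to 222 FPKM in AstroEGFR*. The part of the lineage markers in the Dll1 levels was not tested.

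Dll3, a ligand that acts mainly inside the cell and dampens Notch, was low everywhere but highest in the same PT libraries as Dll1. It was listed at 0.0110 FPKM in AstroEGFR*1, 0.105 FPKM in AstroEGFR*2 and 0 in AstroEGFR*3, at 0.622, 0.255, 0 and 0.520 FPKM across the PT libraries, and at 0.0833, 0 and 0.0589 FPKM in the infected libraries. PT1, PT2 and PT4 exceeded the other 7 libraries, and the 0 in PT3 and in AstroEGFR*3 lies in the libraries of low depth, where 1 fragment was worth about 0.0484 and 0.0636 FPKM.

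**Figure D2:**
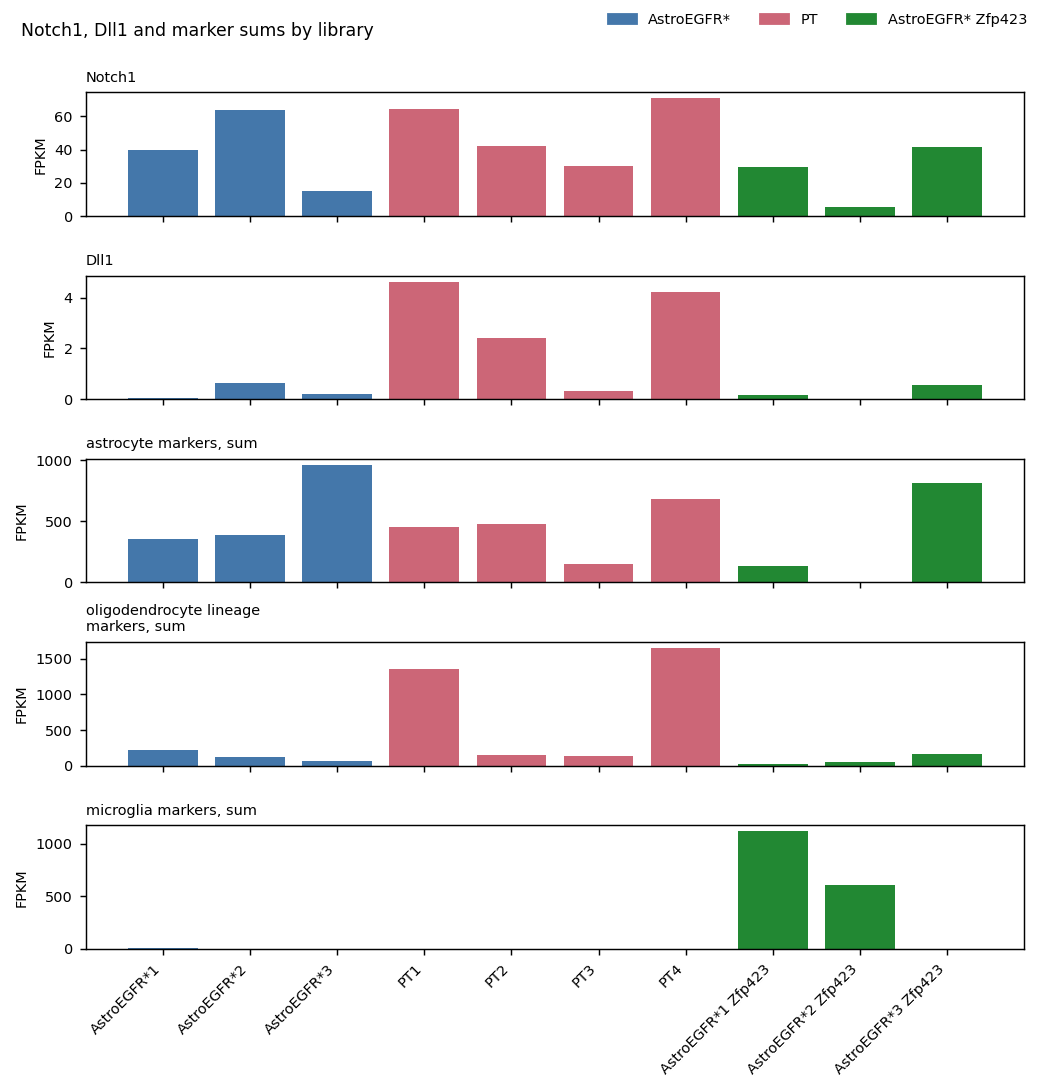
FPKM of Notch1 and Dll1 and the summed FPKM of 7 astrocyte, 7 oligodendrocyte lineage and 6 microglia markers in each library, coloured by group. Dll1 is highest in PT1 and PT4, which have the highest oligodendrocyte lineage sums at 1356 and 1648 FPKM, and Notch1 is lowest in the infected library of batch 2, which has the lowest astrocyte sum at 7.22 FPKM; the bars of 0.0741 to 8.76 FPKM in the microglia panel are too short to see.

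Jag1 was the most abundant of the 4 ligands. Its levels were 15.4, 19.6 and 11.7 FPKM in AstroEGFR*, 7.30, 34.8, 21.1 and 14.3 FPKM in PT, and 50.9, 12.7 and 96.3 FPKM with Zfp423. In batches 1 and 3 the infected culture was 3.30-fold and 8.22-fold its parent, and in batch 2 the parent was 1.55-fold the infected culture. The library with the most Jag1, at 96.3 FPKM, was the one with the most Zfp423, at 105 FPKM, and it had 0.0741 FPKM of microglia markers. In batch 2, Zfp423 was at 3.25 FPKM in the parent and 9.73 FPKM after infection, while Jag1 was lower after it. The part of Zfp423 or of the microglia markers in the Jag1 levels was not tested. Within the PT comparison the batches were split too, since Jag1 was 1.77-fold its parent in PT2 and 1.80-fold in PT3, while the parent was 2.11-fold PT1 and 1.08-fold PT4.

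Jag2, the other Jagged ligand, was at 0.158, 0.107 and 0.0788 FPKM in AstroEGFR*, 0.0573, 0.516, 0 and 1.02 FPKM in PT, and 0.394, 1.65 and 0.0805 FPKM with Zfp423. The highest of all 10 libraries was the infected one of batch 2, where Jag2 stood on about 414 fragments against 32 in its parent. The 2 libraries highest in Jag2, this one and PT4, had 12.7 and 14.3 FPKM of Jag1, below the Jag1 median of 17.5 FPKM.

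The target gene Hes1, a repressor that Notch induces and that other signals also drive, had the highest median over the 10 libraries, though not in PT, where the median was 47.4 FPKM against 53.2 FPKM for Notch1. Its highest value was 2.33-fold its lowest. It stood at 46.5, 88.9 and 74.1 FPKM in AstroEGFR*1 to AstroEGFR*3, at 46.5, 45.8, 106.8 and 48.4 FPKM across the PT libraries, and at 97.2, 62.3 and 93.6 FPKM in the infected libraries. PT3 lay far above the other 3 PT libraries, which agreed within 45.8 to 48.4 FPKM, and although shallow it held about 1237 fragments of Hes1. With Zfp423, Hes1 was 2.09-fold its parent in batch 1 and 1.26-fold in batch 3, and in batch 2 the parent was 1.43-fold the infected culture.

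Hes5, the target with the 2 cores shown above, was near the floor of the measurement. It was listed at 0.118, 2.08 and 0 FPKM in AstroEGFR*, at 0.0795, 0.0787, 0 and 0.905 FPKM in PT, and at 0.117, 0 and 0.178 FPKM with Zfp423. Only AstroEGFR*2 and PT4 stood clear of the rest, with about 153 and 95 fragments against at most 11 in each of the other 8 libraries. In batch 2 the value was 2.08 FPKM before and 0 after infection with Zfp423, where 1 fragment was worth about 0.0160 FPKM, in batch 1 it was 0.118 and 0.117 FPKM, and in batch 3 it was 0 in the shallow parent and 0.178 FPKM after infection.

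**Figure D3:**
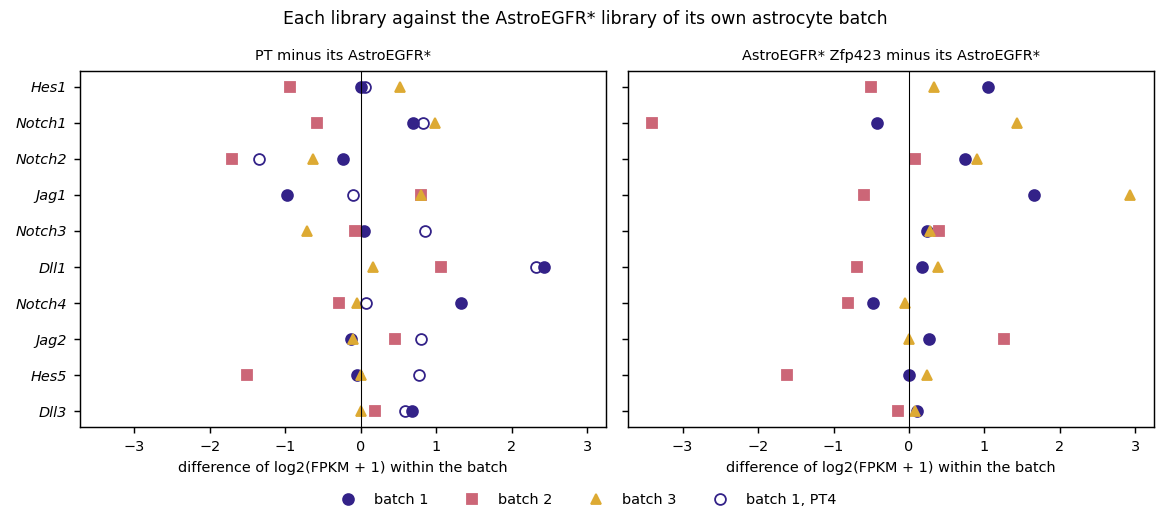
Difference in log2(FPKM + 1) between each PT library (left) or infected library (right) and the AstroEGFR* library of the same astrocyte batch, for each member; each point is 1 library and PT4, the second of batch 1, is open. Notch2 lies below 0 in all 4 PT libraries and above 0 in all 3 infected ones, Dll1 lies above 0 in all 4 PT libraries, and Notch1 with Zfp423 runs from -3.41 in batch 2 to 1.43 in batch 3.

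The first comparison asks what differs between AstroEGFR* and PT, 2 stages of gliomagenesis. No member passed. Of the 10 members 6 averaged 1 FPKM or more and were tested with limma on log2(FPKM + 1), and 0 had an adjusted p below 0.05, while 1.24% of the 12261 features tested did. At an unadjusted p below 0.05 the count was 1 of 6, namely Dll1, beside 13.6% of features. Over all 10 members, 7 had the higher mean in PT and 3 the lower, with a median difference of 0.20 against 0 over all features. The groups overlapped for all 6 members tested, as well as for the other 4, while 14.8% of the features tested did not overlap. Dll1 had a mean of 1.76 ± 0.96 (SD, n = 4) in PT and 0.34 ± 0.33 (SD, n = 3) in AstroEGFR*, a difference of 1.42 ± 0.56 (SE) with a 95% interval of 0.13 to 2.72 (limma, adjusted p = 0.323, range over the alternatives 0.0925 to 0.612). Dll1 met the filter only through PT, every AstroEGFR* library being below 1 FPKM, so a difference was built into its being tested and its values are a description. The size depends on the pseudocount, since with 0.1 in place of 1 the difference was 2.78. Notch2 differed by -0.90 ± 0.43 (SE), with an interval of -1.89 to 0.10 and an adjusted p of 0.419 (limma, range 0.155 to 0.708). By exact two-sided permutation of the labels, p was 0.114 for Notch2 and, as a description, 0.0857 for Dll1. The smallest p that 3 against 4 libraries allow is 0.0286. This permutation takes no account of the batches that PT and AstroEGFR* share, nor of PT1 and PT4 both coming from batch 1. The other intervals were -0.67 to 1.73 for Notch1, -1.20 to 1.45 for Notch3, -0.99 to 1.25 for Jag1 and -1.12 to 0.67 for Hes1, each of which included a difference of 1 in at least 1 direction. With the astrocyte batch as a replicate block 475 in place of 152 features passed, and again no member did. Leaving out 1 library moved the count of features to between 7, without AstroEGFR*1, and 123, and that of members stayed at 0. It also turned the direction of Notch1, to -0.03 without AstroEGFR*3, of Notch3, to -0.28 without AstroEGFR*2 and -0.25 without PT4, and of Jag1, to -0.05 without AstroEGFR*3 and -0.20 without PT2, which leaves these 3 genes without a direction.

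Overexpression of Zfp423 was compared within the batches, as 1 effect over the 3 batches, whereas the study compared each batch on its own. No member passed, and the same was true of every feature: 0 of the 5 members tested and 0% of the 12366 features tested had an adjusted p below 0.05 (limma with the batch as a block), and 0 of 5 members against 7.38% of features had an unadjusted p below 0.05. Zfp423 itself, at 2.52 ± 0.74 (SE), had an adjusted p of 0.628 in this fit, and exact sign permutation over 3 pairs cannot give a p under 0.25. Of the 10 members 6 had the higher mean with Zfp423 and 4 the lower, with a median difference of 0.15 against 0 over all features. Jag1 had the widest positive difference at 1.33 ± 0.74 (SE), with an interval of -0.68 to 3.34 (limma, adjusted p = 0.665, range 0.475 to 1.00), and it was 0.53 without batch 3 and 2.30 without batch 2. Notch2 differed by 0.57 ± 0.26 (SE) with an interval of -0.14 to 1.29 (limma, adjusted p = 0.641, range 0.543 to 1.00). Notch1 differed by -0.80 ± 0.99 (SE) with an interval of -3.50 to 1.90, and the direction rested on batch 2, without which the difference was 0.50. Without batch 2, 51 features passed in place of 0, none of them a member. The groups overlapped for all 5 members tested, beside 11.5% of features tested that did not overlap. Of the other 5, which were not tested, Notch4 alone did not overlap, being lower with Zfp423. Its closest pair rested on about 50 fragments in the infected library of batch 1 and 7 in AstroEGFR*3. Notch2 and Notch3 were higher in 3 of 3 batches, and Jag1 and Hes1 in 2 of 3. Jag2 was also higher in 3 of 3, in batch 3 by 0.0805 against 0.0788 FPKM, the latter on about 2 fragments. Notch4 was lower in 3 of 3. For Notch2, Notch3, Notch4 and Jag2 the exact sign permutation p was 0.25, the smallest that 3 pairs allow. How many of all features kept 1 direction in the 3 batches was not counted, so these directions are a description. The infected libraries of batches 1 and 2 were those with microglia markers, and in batch 3, where these summed to 0.0741 FPKM, Notch2 was 1.92-fold, Notch3 1.25-fold and Jag1 8.22-fold the parent. That parent, AstroEGFR*3, is the library of lowest depth, and in this batch the markers of fibroblasts or meninges went from 5072 to 222 FPKM and the mural cell markers from 77.9 to 6.20 FPKM; the part of these in the differences was not tested. Small RNA and histone features went from 0.315% to 35.4% of the FPKM in batch 1, from 29.6% to 35.9% in batch 2 and from 4.84% to 54.8% in batch 3 between parent and infected library, so that this share moved most in batches 1 and 3, where Jag1 and Hes1 were higher; its part was not tested.

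PT and infected AstroEGFR* were set against each other last, to complete the order of the 3 groups. Here 0 of 6 members and 0.0161% of 12412 features passed, and 2 of 6 members against 16.0% of features had an unadjusted p below 0.05. Those 2 were Notch2 and Dll1. Notch2 differed by -1.47 ± 0.41 (SE) with an interval of -2.44 to -0.50 (limma, adjusted p = 0.218, range 0.127 to 0.524), and its groups did not overlap, which made it 1 of 6 members tested beside 14.5% of features. Its exact permutation p, again without regard to the batches, was 0.0571. Dll1 differed by 1.47 ± 0.58 (SE) with an interval of 0.12 to 2.81 (limma, adjusted p = 0.285), again having met the filter only through PT, and by 2.96 with a pseudocount of 0.1. For Notch1 the difference was 1.33 ± 0.67 (SE) with an interval of -0.23 to 2.89 (limma, adjusted p = 0.376), and it was 0.48 without the infected library of batch 2. This comparison shares its PT libraries with the first and its infected libraries with the second, so the 3 results are not independent.

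**Figure D4:**
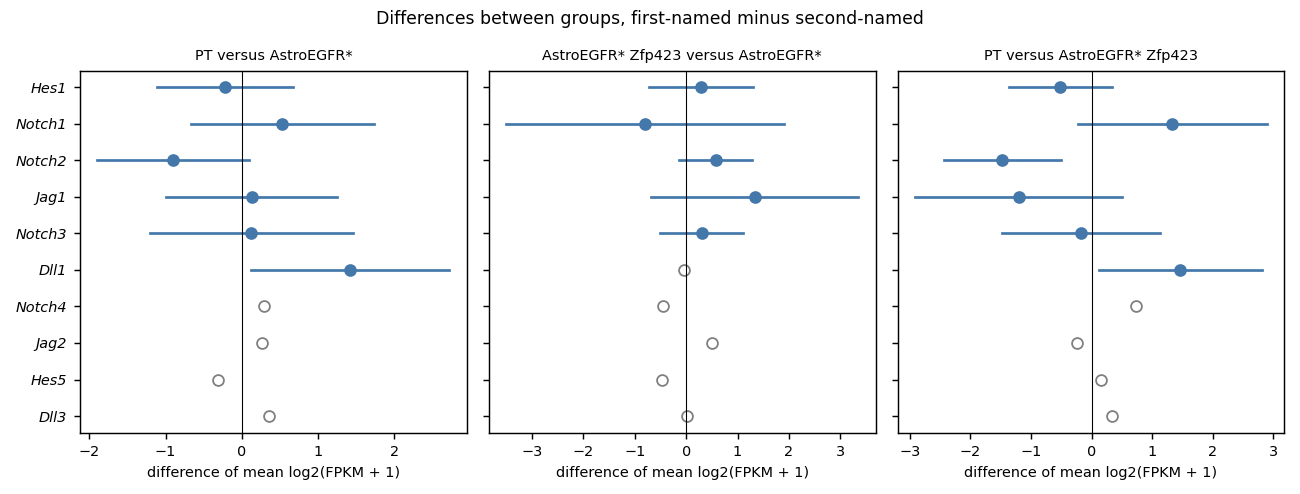
Difference of the group means of log2(FPKM + 1) for each member in the 3 comparisons, the first-named group minus the second; filled points with bars are members tested with limma and their 95% intervals, and open points are members below a mean of 1 FPKM, which were not tested. The interval of Notch2 in the right panel, -2.44 to -0.50, lies below 0, Dll1 in the left and right panels met the filter only through PT, and no member passed after adjustment over all features.

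Around the members, 65 other genes of the pathway were listed by role, of which 53 were tested between PT and AstroEGFR*. These were 7 of 8 other ligands, 4 of 4 genes of ligand activation, 4 of 5 glycosyltransferases, 9 of 10 proteases, 7 of 7 genes of the nuclear complex, 9 of 9 corepressors, 10 of 10 inhibitors, 2 of 7 other Hes and Hey genes and 1 of 5 proneural genes. None passed in either direction (limma), and 7 had an unadjusted p below 0.05, beside 13.6% of all features; their median difference was -0.15 against 0.03 over all features tested. With Zfp423, 0 of 52 passed and 4 had an unadjusted p below 0.05, beside 7.38% of features. Between PT and infected AstroEGFR* the counts were 0 and 11 of 51, beside 16.0%. The 9 proteases tested stayed between -0.60 and 0.49 for PT against AstroEGFR*. The 7 other ligands tested ran from -2.49 to 3.57, but both ends, Dlk2 and Cntn1, met the filter through 1 group only, so this range is a description.

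In 8 of the roles the gene with the widest difference between PT and AstroEGFR* was as follows. Cntn1, a contactin described as a Notch ligand of oligodendrocyte precursors, was listed at 0.00874 to 0.0277 FPKM in AstroEGFR*, at 10.3, 14.4, 0 and 122 FPKM across the PT libraries and at no more than 0.0268 FPKM with Zfp423, a difference of 3.57 ± 1.38 (SE) between PT and AstroEGFR* (limma, adjusted p = 0.314). It met the filter only through PT, so this difference is a description. It was high in the same 3 PT libraries as Dll1 and Dll3. Neurl1a, a ubiquitin ligase that promotes ligand uptake, ranged from 0.167 to 7.08 FPKM in PT and from 0.0868 to 1.76 FPKM in AstroEGFR*, whose libraries averaged below 1 FPKM, so that it met the filter through PT. Lfng, a glycosyltransferase that makes Notch prefer Delta-like ligands, was at 19.6 to 47.4 FPKM in AstroEGFR* and at 51.3, 6.27, 8.99 and 45.3 FPKM across the PT libraries, so that PT1 and PT4 lay at the level of AstroEGFR* and PT2 and PT3 below it. Furin, which cuts the receptor precursor during its maturation, was at 39.4 to 54.2 FPKM in AstroEGFR* and 17.2 to 52.4 FPKM in PT.

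Rbpj, the DNA-binding partner of the receptor, was at 9.85 to 16.4 FPKM in AstroEGFR*, 12.1 to 31.1 FPKM in PT and 11.3 to 41.7 FPKM with Zfp423, with a difference of 0.63 ± 0.37 (SE) for PT (limma, adjusted p = 0.521). Tle3, a Groucho corepressor that Hes proteins recruit, was at 29.3 to 45.3 FPKM in AstroEGFR* and at 8.67 to 22.9 FPKM in PT, where no library of PT reached the lowest of AstroEGFR*, and differed by -1.10 ± 0.37 (SE) with an adjusted p of 0.259 (limma). Dtx1, a ubiquitin ligase that regulates Notch, stood at 0.0432 to 0.507 FPKM in AstroEGFR* and 0.0660 to 9.07 FPKM in PT, and it met the filter only through PT. Hey1, a target gene of the same family as Hes1, was at 14.0 to 34.2 FPKM in AstroEGFR*, 8.56 to 21.7 FPKM in PT and 14.0, 0.211 and 24.4 FPKM in the infected libraries of batches 1 to 3. Its low value fell in the same library as that of Notch1, and its differences of -0.79 for PT and -1.55 for Zfp423 did not pass (limma, adjusted p = 0.448 and 0.696).

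For the 6 members that averaged 1 FPKM or more in the 10 libraries, the features most alike in log2(FPKM + 1) among 12475 were sought by Pearson's r. Notch1 was most like Sox8 (r = 0.988), a glial transcription factor, and Rragb (0.979). For Dll1 they were Pllp (0.974), which encodes plasmolipin of myelin, and Pex5l (0.973), for Jag1 Rg9mtd3 (0.981) and Vipar (0.946), and for Notch2 Znfx1 (0.937) and Btbd7 (0.922). Notch3 was most like Wdr41 (0.910) and Dynlt1b (0.881), and Hes1 was most like Map4k3 (0.882) and Ccnc (0.875). Among themselves the members were less alike, with r between -0.58 for Dll1 and Hes1 and 0.64 for Notch1 and Dll1. These coefficients describe 10 libraries that share batches and differ in depth, and the best of so many features is high by selection.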

How the data were processed

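RNAseq values of 3 AstroEGFR*, 4 PT and 3 AstroEGFR* Zfp423 libraries were used, grouped by their labels. The authors deposited FPKM values per gene symbol; the submitters' processing notes name TopHat 1.3, Cuffnorm and mm9. The labels name a TruSeq kit and a lentiviral Zfp423 vector, the paper ribosomal RNA removal, stranded libraries and a retroviral vector. Batches of PT were taken from the paper. All columns were used.

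Features that averaged 1 FPKM or more were compared on log2(FPKM + 1), whose differences understate changes of low genes, with limma 3.58.1 in R 4.3.3 (empirical Bayes with trend, Benjamini-Hochberg, threshold 0.05), and single genes by exact permutation with scipy 1.17.1. The procedure was tested on simulated data with large planted differences and no batch effect. That test does not cover differences as small as those of the members. Same-batch AstroEGFR* and PT libraries deviated together (r 0.346 to 0.499, other pairs -0.340 to -0.0914). For Zfp423 the block follows the batch numbers in the titles. There, infected and parent libraries of the same batch were no more alike than other pairs (r -0.262 to 0.241, other pairs -0.232 to 0.308). Cultures are single, so p-values measure the spread between these libraries. Relative depth came from the step at which FPKM times length piles up in genes with 1 GENCODE M21 transcript over 1500 bases, and fragment numbers of members from their longest transcript; counts are approximate. Small RNA and histone features held 0.315% to 54.8% of FPKM. Promoters are RefSeq, GRCm38.p6.

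All 10 members, per role list the pathway gene with the widest difference between PT and AstroEGFR*, and the 2 features most like each member are named, except where a gene is not reported here. Members and lists were chosen with earlier results of these data known. Alternatives were a pseudocount of 0.1, no filter, median-ratio scaling, no trend, all 10 libraries in 1 fit, the block, PT1 and PT4 averaged and each library left out; leaving out both shallow libraries was chosen after the data were seen.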

Additional observations from a re-analysis of the deposited data

Results flagged for a closer look

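Among the 4 PT libraries a gap test (Dixon's, at its 95% critical value, on log2(FPKM + 1)) set 1 library apart for 2 of the members. For Hes1 it was PT3 at 106.8 FPKM against 45.8 to 48.4 FPKM, a gap of 0.935 of the range on the log2 scale. For Hes5 it was PT4 at 0.905 FPKM against 0 to 0.0795 FPKM, a gap of 0.881 of the range on that scale. Chance alone sets apart about 1 in 20 such groups, and 10 members were examined.

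Between infected and parent cultures Notch1 differed in opposite directions in different batches, by 1.43 in batch 3 and -3.41 in batch 2 on the log2(FPKM + 1) scale. The infected library of batch 2 had 7.22 FPKM of astrocyte markers against 392 FPKM in its parent, and 602 FPKM of microglia markers; their part was not tested, and infection and Zfp423 cannot be told apart. With 1 library per batch and condition this difference between batches was not tested.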

How the results depend on the processing

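No member passed the threshold in any of the 3 comparisons under any alternative; the lowest adjusted p (limma) was 0.0925 for PT against AstroEGFR*, 0.404 for Zfp423 and 0.127 for PT against infected AstroEGFR*. Of 215 values of members under alternatives 12 turned direction, and the cause was not tested. For PT against AstroEGFR*, Notch3 (0.13) was -0.057 with the replicate block and -0.095 with PT1 and PT4 averaged, Jag1 (0.13) was -0.15 without both shallow libraries, and with each library left out Notch1 ran from -0.032 to 0.99, Notch3 from -0.28 to 0.46 and Jag1 from -0.20 to 0.50. With each batch left out, Notch1 with Zfp423 ran from -1.91 to 0.50 and Hes1 from -0.086 to 0.69. With each library left out, Notch3 in PT against infected AstroEGFR* ran from -0.55 to 0.16.

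The count of all features past the threshold depended on the setting. For PT against AstroEGFR* it was 152, and 45 without a filter, 62 with all 10 libraries in 1 fit, 475 with the replicate block, 59 with PT1 and PT4 averaged, 8 without both shallow libraries and 7 to 123 with 1 library left out. For Zfp423 it was 0, and 2 with no replicate block and 0 to 51 with 1 batch left out. For PT against infected AstroEGFR* it was 2, and 0 with a pseudocount of 0.1, 28 with all libraries in 1 fit, 20 with the replicate block and 0 to 629 with 1 library left out, the highest without the infected library of batch 3. The block changed no call of a member or of another pathway gene.

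Of the other pathway genes, 1 passed without a filter for PT against AstroEGFR*, Heyl, listed at 0 to 0.00807 FPKM in PT and 0.181 to 0.245 FPKM in AstroEGFR* (limma, adjusted p = 0.0168), and 0 to 1 with 1 library left out, Dlk2 without AstroEGFR*3 (adjusted p = 0.0498), which met the filter only through AstroEGFR*, PT being at most 0.509 FPKM. For PT against infected AstroEGFR* the range was 0 to 2, with Adam10 as 1 of the 2 without PT2 and Mfap5 without the infected library of batch 3, which met the filter only through the infected group, PT being at most 0.0982 FPKM. A difference was built into the testing of Dlk2 and Mfap5, so these calls are a description. These 4 were named after their values were seen. Depth limits Notch4, Dll1, Dll3, Jag2 and Hes5 most, since AstroEGFR*3 and PT3 held at most 9 fragments of each.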
